A study of Caenorhabditis elegans with 2 samples.

Results

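The genes lin-11, cog-1, nhr-67, egl-38, vab-23, cdh-3, zmp-1 and egl-17 form a group of vulval cell fate and differentiation in hermaphrodite Caenorhabditis elegans. Of them, zmp-1, cdh-3 and egl-17 are widely used as reporters of vulval cell fate. These 8 genes were named beforehand and not by their signal, and all 8 were found in the Ensembl annotation of the WBcel235 assembly, which holds 19973 protein-coding genes on the nuclear chromosomes. The data were peak tables from chromatin immunoprecipitation and sequencing (ChIP-seq) of LIN-39 tagged with eGFP, in 2 biological replicates of whole worms at the second larval stage, L2. The worms were of strain OP18, genotype unc-119(ed3) III; wgIs18, with both sexes pooled, and the labels describe the transgene as an insertion that targets lin-39. The samples formed 1 group, so there was no second stage, strain or factor to compare with, and no test between conditions could be made.

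LIN-39 is the Hox transcription factor of the mid-body. It is known to keep the vulval precursor cells from fusing with the epidermis and to act again when these cells respond to the inductive signal. Inductive EGF and lateral Notch signals then set primary and secondary fates, and the descendants divide and form a stack of ring-shaped cells, the toroids, each with its own set of expressed genes. The vulval precursors are few among the cells of a whole larva, their divisions come after L2, and LIN-39 is also made in neurons and other cells of the mid-body. A region on DNA from whole larvae therefore cannot be assigned to vulval cells.

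Each gene was given a window from 5000 bp upstream of its outermost annotated 5′ end to its 3′ end. Distances from the 5′ end are from that point unless another coding 5′ end is named. Every region whose summit (the highest point, here always the middle of the region) lay in the window was counted. Regions came from 3 ce11 candidate lists of 30000 regions each, 1 for each replicate and 1 called on both replicates together, which is called the joint list here. A rank of 1 is the highest signal value in a list. The windows of the 8 genes were between 7634 and 18220 bp long. Because each list was filled to the same length, a region low on it may be background. The authors' optimal list held 311 peaks, which were the 311 highest signal values of the joint list.

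None of the 8 windows held a peak of the optimal list, where 2.54% of all coding genes had one by the same rule. In the joint list 2 of the 8 genes, vab-23 and zmp-1, had a region among the 2000 strongest, against 13.8% of all coding genes and 17.2% of the 6959 coding genes whose windows were as long as those of the 8. With cdh-3, 3 of the 8 had one among the 5000 strongest, against 31.0% and 36.7%. With so few genes, these counts do not separate the vulval genes from other genes. The order by strongest region in the joint list was vab-23 at rank 845, zmp-1 at 1565, cdh-3 at 2881, egl-38 at 5279, egl-17 at 8761, nhr-67 at 9658, cog-1 at 12265 and lin-11 at 13890. This order held in neither replicate. Replicate 1 put zmp-1, cdh-3 and egl-38 first and lin-11 last, and replicate 2 put vab-23, cdh-3 and zmp-1 first and egl-38 last. The median of the best ranks was 7020 for the 8 genes and 9457 for all coding genes, with a gene without a region counted at 30000.

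**Figure D1:**
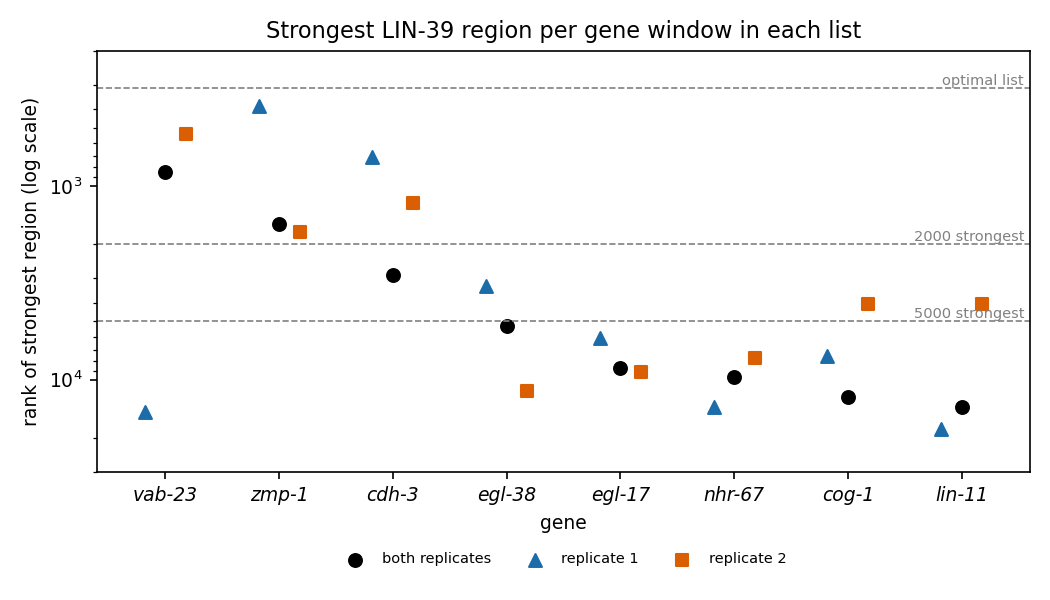
Rank of the strongest region in the window of each gene (log axis, strongest at the top) in the list from both replicates together and in each replicate's list; dashed lines mark the optimal list and the 2000 and 5000 strongest regions. All points lie below the line at rank 311, which marks the optimal list for joint ranks only. Only zmp-1 and cdh-3 have both replicate points above the line at 2000.

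**Figure D2:**
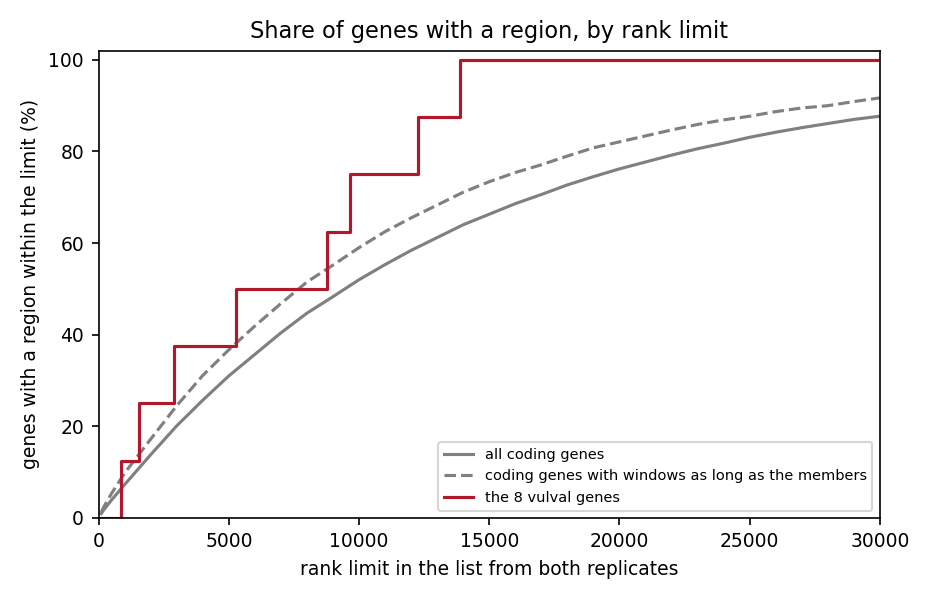
Percentage of genes (vertical axis) with a region in the joint list at or above a rank limit (horizontal axis), for the 8 vulval genes (steps), for all 19973 coding genes and for the 6959 coding genes with windows as long. At the limits of 2000 and 5000 the steps stand at 2 and 3 genes of 8.

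Of the 8 members 5 encode transcription factors. The strongest region of the whole set belonged to vab-23, a zinc finger gene needed for the shaping of the toroids (II:11897365-11901210, minus strand). It lay in an intron, 1035 bp downstream of the 5′ end, at II:11900020-11900329, with a joint signal value of 33.6, where the weakest optimal peak had 42.4. In replicate 2 this site was at rank 539. In replicate 1 no region overlapped it, and the nearest summit, at rank 14679, was 1249 bp away. The site was thus strong in 1 replicate only. The 201 bases centred on this summit are given because they are the highest-ranked vulval sequence, on the strand of the gene from II:11900075-11900275, and none of the 4 words searched below occurred in them.
vab-23 intron: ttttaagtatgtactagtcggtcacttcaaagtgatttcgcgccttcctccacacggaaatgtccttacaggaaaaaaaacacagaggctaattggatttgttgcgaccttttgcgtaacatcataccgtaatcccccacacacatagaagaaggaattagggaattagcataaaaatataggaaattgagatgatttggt
Upstream of vab-23, replicate 2 had 2 more regions at ranks 2772 and 3271, which lay 2572 and 1166 bp from the 5′ end. Both had an overlapping region in replicate 1, but at ranks 25760 and 24235. The region next to the 5′ end, 193 bp upstream in the joint list, was on both lists at ranks 14679 and 10146. The vab-23 window held 6 joint regions where its length would give 2.65, and 3 of these were found in both replicates.

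The gene egl-38, a Pax-family gene that patterns the cells linking vulva and uterus (IV:10106599-10110517, minus strand), had a single joint region. It stood in a coding exon at IV:10107041-10107350, 3321 bp from the 5′ end, with a joint signal value of 24.2. Both replicates had it, at the similar ranks of 10934 and 11476. The strongest replicate 1 region of egl-38 was a different one, in an intron at rank 3285, with no counterpart in replicate 2. The sequence under the shared summit, at IV:10107096-10107296 on the strand of the gene, is shown for its Hox-Pbx-type word, the 8 capitals TGATAAAT, whose middle lay 30 bp from the summit.
egl-38 coding exon: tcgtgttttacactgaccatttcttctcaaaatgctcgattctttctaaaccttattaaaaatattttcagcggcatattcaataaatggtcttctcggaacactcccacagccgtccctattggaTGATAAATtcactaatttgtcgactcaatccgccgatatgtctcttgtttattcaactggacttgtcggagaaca
The same letters also hold the GATA-type word TGATAA, so that this site counts for both words.

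For nhr-67, a nuclear receptor gene of the tailless type that acts in the anchor cell and in vulval cells (IV:11169748-11174791, plus strand), the strongest joint region stood at its 5′ end. This region, at IV:11169686-11169995 with its summit 93 bp inside the gene, had rank 9658 and was on both replicate lists, at ranks 16782 and 9043. The replicate summits were 116 and 18 bp from the 5′ end. This region and the vab-23 region 193 bp upstream were the only 2 of the 30 joint regions near the outermost 5′ end of their gene. Near here means a summit from 1000 bp upstream to 200 bp downstream. Replicate 2 had a stronger region in an intron, at rank 7741, that replicate 1 lacked. The 108 bases around this summit that follow the untranslated part, IV:11169834-11169941, are given as the sequence at the start of the gene.
nhr-67 start: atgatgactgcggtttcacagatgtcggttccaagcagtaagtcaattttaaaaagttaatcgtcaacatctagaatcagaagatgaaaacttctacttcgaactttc
The stretch held none of the 4 words; the GAGAGA of this region lay 78 bp before the summit, in the part not shown.

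The homeobox gene cog-1 (II:14902493-14907533, plus strand) is of the Nkx type and needed for secondary vulval lineages and the link of vulva and uterus. Its strongest regions in the 2 replicates were closer to each other in place than those of any other member. This region, in an intron at II:14903305-14903614, lay 967 bp from the outermost 5′ end and 330 bp from another coding 5′ end of cog-1. It was at rank 7594 in replicate 1 and at 4093 in replicate 2, and 60 bp separated the replicate summits. It was the strongest cog-1 region of each replicate. In the joint list the same region had only rank 12265, lower than in either replicate. Of the 8 genes, cog-1 alone had its strongest region at the same site in both replicates. It was also the only one with a region that ranked among the 10000 strongest of both, a limit set after the ranks were seen, which 15.4% of all coding genes met. Its sequence at II:14903360-14903560 is given for that agreement, with the word TGATGAAT in capitals 31 bp before the summit.
cog-1 intron: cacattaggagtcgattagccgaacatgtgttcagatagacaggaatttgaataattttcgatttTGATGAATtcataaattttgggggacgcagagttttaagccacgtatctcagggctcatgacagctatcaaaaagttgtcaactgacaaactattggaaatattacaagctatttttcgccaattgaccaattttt

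The members zmp-1, cdh-3 and egl-17 encode proteins that act at or outside the cell surface, and all 3 are widely used as reporters of vulval cell fate. The metalloproteinase gene zmp-1 (III:5926895-5932953, minus strand), also expressed in the anchor cell, had its strong regions upstream. The first, at III:5935181-5935490 and 2383 bp upstream of the 5′ end, had joint rank 1565 and a signal value of 30.2. It was at rank 385 in replicate 1, the best replicate rank of any member, and was missing from replicate 2. The second, at III:5937096-5937405 and 4298 bp upstream, had joint rank 4186, was at rank 1721 in replicate 2 and was missing from replicate 1. The replicates' strongest regions were 1929 bp apart. Both sites lay nearer to a coding 5′ end of the neighbour EGAP1.1, at 1884 and 31 bp, than to that of zmp-1. Replicate 2 had a further region 1102 bp upstream of zmp-1, at rank 2136, without a match in replicate 1.

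A peak of the optimal list stood 177 bp beyond the limit of the zmp-1 window and was not counted above. It was at III:5937975-5938284, 5177 bp upstream of zmp-1, with a joint rank of 90 and a signal value of 63.4. Both replicates had it high, at ranks 71 and 176, unlike every region inside the windows. Its nearest coding 5′ end was that of EGAP1.1, at 910 bp, and its summit lay in no coding gene. The 3 upstream sequences are given together on the strand of zmp-1, from III:5938030-5938230, III:5937151-5937351 and III:5935236-5935436, since the first is the strongest region within 10000 bp upstream of, or inside, any of the 8 genes, and the other 2 are each the strongest site of 1 replicate inside the zmp-1 window. Capitals mark the words GAGAGA, found in each, and ATTGATCA, which is TGATNNAT read on the other strand.
zmp-1 upstream, joint rank 90: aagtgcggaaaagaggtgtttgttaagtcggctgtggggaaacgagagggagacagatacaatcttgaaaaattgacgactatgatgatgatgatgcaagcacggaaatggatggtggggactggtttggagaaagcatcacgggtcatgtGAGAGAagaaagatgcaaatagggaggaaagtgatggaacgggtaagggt
zmp-1 upstream, joint rank 4186: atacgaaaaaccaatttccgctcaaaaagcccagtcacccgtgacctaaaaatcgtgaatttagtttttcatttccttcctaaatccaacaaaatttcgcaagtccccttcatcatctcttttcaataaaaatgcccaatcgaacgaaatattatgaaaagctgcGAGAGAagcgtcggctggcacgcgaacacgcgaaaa
zmp-1 upstream, joint rank 1565: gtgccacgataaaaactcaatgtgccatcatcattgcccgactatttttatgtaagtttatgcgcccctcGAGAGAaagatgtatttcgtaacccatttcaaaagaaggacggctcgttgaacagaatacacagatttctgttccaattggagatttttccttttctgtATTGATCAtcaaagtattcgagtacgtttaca

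The gene cdh-3, which encodes a Fat-type cadherin (III:7741229-7754448, minus strand), was the longest member, at 13220 bp, and its 6 joint regions, where length alone would give 5.45, all lay inside the gene. The strongest, in an intron 929 bp from the 5′ end at III:7753364-7753673, had joint rank 2881 and was on both replicate lists, at ranks 5087 and 13453. The next, in a coding exon near the 3′ end at III:7743702-7744011, had joint rank 3851. It lay nearer to a coding 5′ end of another gene, at 3316 bp, than to that of cdh-3, at 10591 bp. The summits of this region in the replicates lay 1 bp from the joint summit, but its ranks were 23539 in replicate 1 and 1222 in replicate 2. The coding exon regions at joint ranks 10911 and 8235 were the reverse case, at ranks 712 and 832 in replicate 1 and missing from replicate 2. Both replicates thus ranked a cdh-3 region high, at sites 3372 bp apart. The strongest site of each replicate is shown on the strand of the gene, from III:7747128-7747328 for replicate 1 and III:7743757-7743957 for replicate 2, with TTATCA, the other strand of TGATAA, in capitals in the second.
cdh-3 exon, strongest in replicate 1: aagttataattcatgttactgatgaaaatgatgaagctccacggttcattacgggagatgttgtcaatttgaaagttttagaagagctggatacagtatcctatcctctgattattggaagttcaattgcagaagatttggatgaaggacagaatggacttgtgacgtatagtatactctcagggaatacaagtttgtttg
cdh-3 exon, strongest in replicate 2: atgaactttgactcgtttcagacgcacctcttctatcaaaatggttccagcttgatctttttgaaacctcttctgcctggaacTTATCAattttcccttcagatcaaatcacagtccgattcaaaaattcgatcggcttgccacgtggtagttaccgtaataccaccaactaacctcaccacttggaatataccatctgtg

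The last of the 3, egl-17, is a fibroblast growth factor gene whose product draws the sex myoblasts to the mid-body and which marks vulval cells (X:489685-492318, plus strand). Its 2 joint regions were at ranks 8761 and 27366. Both overlapped a region of replicate 1, at ranks 6066 and 9092, and none of replicate 2. The stronger was in the last part of the gene at X:491992-492301, 2462 bp from the 5′ end. The other lay 209 bp from the outermost 5′ end and 120 bp from another coding 5′ end of egl-17. The regions of replicate 2 were at other sites, 3600 and 339 bp upstream, at ranks 9168 and 27238. Of the 8 genes, egl-17 alone had no joint region found in both replicates.

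The LIM homeobox gene lin-11, required for secondary vulval lineages and for cell fates in all the toroids (I:10248288-10255327, plus strand), ranked lowest in the joint list. Its first region, 4715 bp upstream at I:10243418-10243727, had joint rank 13890, was at rank 4076 in replicate 2 and was missing from replicate 1. The other 2 joint regions overlapped each other near the middle of the gene, at ranks 16147 and 24641. A replicate 1 region at rank 18005 matched both of them, and a replicate 2 region at rank 28165 matched the first. No joint region of lin-11 held any of the 4 words.

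**Figure D3:**
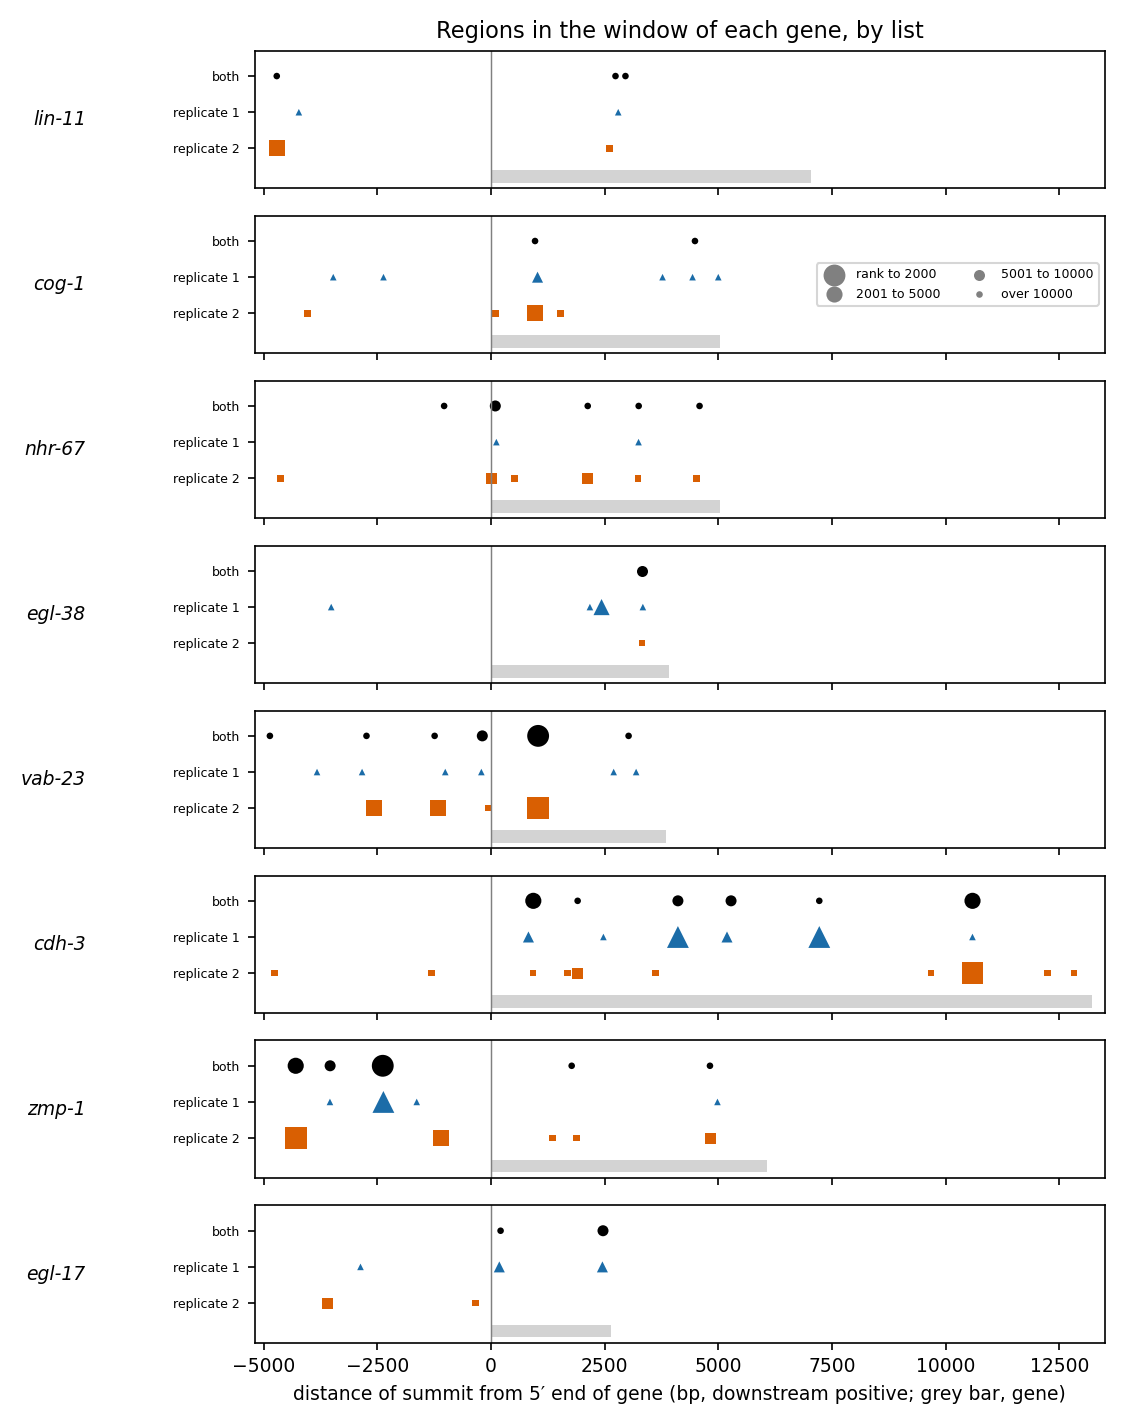
Summits in the window of each gene by distance from its 5′ end in bp (downstream positive), for the joint list (circles), replicate 1 (triangles) and replicate 2 (squares); larger symbols mark better ranks and the grey bar is the gene. The largest symbols of cdh-3 and zmp-1 stand at a different place in each replicate. For vab-23, replicate 2 has large symbols and replicate 1 has only the smallest. The strongest regions of cog-1 in the 2 replicates lie together at about 967 bp, with symbols of smaller size.

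Across the 8 windows, 86.8 kb in all, the joint list had 30 regions, or 0.346 per kb, where the whole genome had 0.299 per kb. Window length alone would give 26 regions. Fewer than by length were held by egl-38 (1, length 2.67), cog-1 (2, length 3), lin-11 (3, length 3.6) and egl-17 (2, length 2.28). More were held by nhr-67 (5, length 3.01), zmp-1 (5, length 3.31), vab-23 and cdh-3. Replicate 1 had 33 and replicate 2 had 34. Of the 30 joint regions, 11 (36.7%) overlapped a region in both replicate lists by at least 1 bp, close to the 34.9% of all joint regions. Of the rest, 10 were matched in replicate 1 only, 7 in replicate 2 only and 2 in neither. The 5 member regions among the 5000 strongest, those of vab-23, zmp-1 and cdh-3 described above, were found in both lists in 2 cases, both at cdh-3, where 80.4% of all joint regions that strong were. This is a count over 5 regions of 3 genes, and no test was made on it. Counted by gene, 2 of the 8, zmp-1 and cdh-3, had a region among the 2000 strongest of each replicate, against 4.72% of all coding genes. That share, like those for each replicate alone, was not limited to windows as long. The median window was 10042 bp for the 8 genes and 7027 bp for all coding genes, and a longer window holds more regions. For replicate 1 alone the count was 2, with zmp-1 and cdh-3, against 14.0% of all coding genes. For replicate 2 alone it was 3, with vab-23 added, against 14.2%. For neither zmp-1 nor cdh-3 was it the same site in both replicates, while 643 of the 943 coding genes with such regions (68.2%) had a site that was among the 2000 strongest of both.

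**Figure D4:**
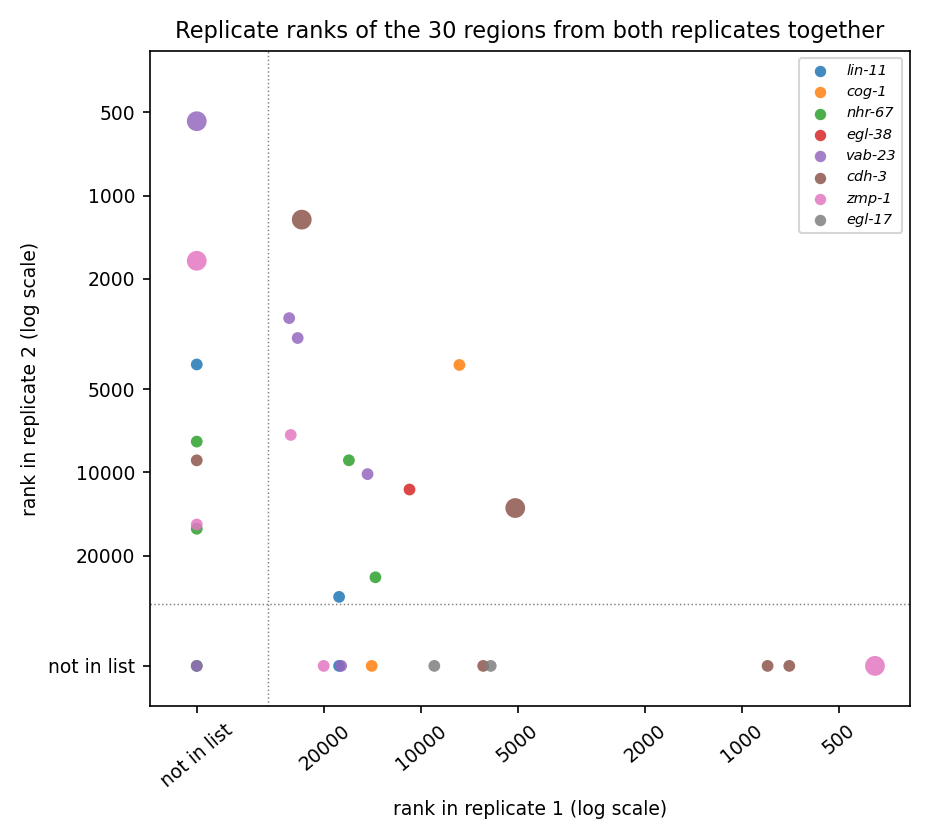
Rank in replicate 1 (horizontal, log axis) against rank in replicate 2 (vertical, log axis) of the 30 joint regions, coloured by gene; large points are the 5 regions among the 5000 strongest, and points beyond the dotted lines had no overlapping region in that replicate (the 2 regions in neither, of nhr-67 and vab-23, coincide). The upper right, where a region would rank high in both replicates, is empty, and the cog-1 region comes nearest to it.

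By position, 11 of the 30 summits lay in introns of the member, 10 in its coding exons and 9 upstream. The nearest coding 5′ end was the member's own for 18 and another gene's for 12, so the window rule and a nearest-gene rule assign differently. The 5 regions among the 5000 strongest were 2 upstream, 2 in introns and 1 in a coding exon.

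A search of both strands, 100 bp to each side of every summit, was made for 4 words. TGATNNAT, the type of word bound by Hox proteins with Pbx partners, was at 7 of the 30 member regions (23.3%). It was at 17.0% of all joint regions and at 21.5% of the optimal peaks. The 7 were the cog-1 and egl-38 regions shared by both replicates, 2 upstream regions each of vab-23 and zmp-1, and 1 of egl-17. The vab-23 region at joint rank 19992 was in both replicate lists and that at 20521 in neither. The zmp-1 regions, at 1565 and 8411, and the egl-17 region, at 8761, were matched in replicate 1 only. The summit of the zmp-1 region at 8411 lay inside the neighbour EGAP1.1. One vab-23 region, 1242 bp upstream at joint rank 19992, held TGATCGAT at 2 places, 2 and 62 bp from its summit. GAGAGA was also at 7 (23.3%), against 13.1% of all joint regions and 45.0% of the optimal peaks. TAATTA, the homeodomain core, was at 2 (6.67%), both in nhr-67, against 9.22% of all joint regions and 5.47% of the optimal peaks. TGATAA was at 4 (13.3%), against 18.9% and 9.32%. A match describes letters and not a bound site. Within 100 bp of the summit, the 30 member regions had a median GC content of 38.3%, against 35.8% for all joint regions.

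For other vulval genes, 38 were listed from the inductive, Notch and Wnt pathways, competence and fusion, the anchor cell and morphogenesis, with earlier results of these data known. Of these, 2 had an optimal peak in the window, lin-17, a Frizzled-type Wnt receptor gene, and ldb-1, which encodes the LIM-binding partner of LIM homeodomain proteins such as LIN-11. In the joint list 15 of 38 (39.5%) had a region among the 2000 strongest, against the 13.8% of all coding genes. Their median window was 10807 bp, against 10042 bp for the 8 genes and 7027 bp for all coding genes, and a longer window holds more regions. Besides lin-17 at rank 181 and ldb-1 at 216, these were sem-5 at 471, let-60 at 574, lin-45 at 702 and sur-2 at 1089 of the EGF, Ras and Mediator group. The transcription factor genes were lin-31 at 717, sem-4 at 812, lin-29 at 1117, egl-18 at 1369 and elt-6 at 1649. The others were egl-26 at 999, the beta-catenin gene bar-1 at 1085, the Notch receptor gene lin-12 at 1367 and the Ryk-type Wnt receptor gene lin-18 at 1638. The neighbours egl-18 and elt-6 had the same best region in replicate 1, at rank 646. For ranks in both replicates, 6 of the 38 had a region among the 2000 strongest of each, against the 4.72% of all coding genes. For 2 of these 6, lin-17 and ldb-1, a single site was among the 2000 strongest of both. No joint region lay in the windows of lin-39, apx-1 or smo-1.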

How the data were processed

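The deposited files are narrowPeak tables. Per the authors' deposited README text, a replicate's candidate list was made from that replicate's alignments and 1 further file, which also served for the control-normalized signal. The joint list came from both replicates' alignments, and the optimal list from the 3 candidate lists. Aligner, peak caller and thresholds were not given in the sources used here. The signal value that the authors deposited per region was used only to rank regions within 1 list. The deposited q column was treated as a score, since 19118 of its 30000 values in the joint list were below 0, and was not used further. Depth is unknown from these tables.

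Tables on ce11 were used, whose regions end within the WBcel235 chromosomes, with genes from Ensembl release 115; ce10 tables were not used here. Sequences were read from the RefSeq WBcel235 genome, with UTRs left out, and none is printed for lin-11 or egl-17. A joint region was found in a replicate where they overlapped by at least 1 bp, with the best rank kept. Widths were 310 bp in the joint list, 330 bp in replicate 1 and 300 bp in replicate 2. Whether the replicates came from separate cultures is not stated beyond their label as biological replicates.

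All 8 genes are named with their ranks, other vulval genes only where among the 2000 strongest, and neighbours only where nearest to a region among the 5000 strongest; the zmp-1 peak beyond its window, the other vulval genes named for having no region and the 2 vab-23 matches were added after their values were seen. The genes, lists and words were chosen with earlier results of these data known. Assignment and matching were checked on simulated regions. Work was done in Python 3.11.15, NumPy 2.4.6, pandas 2.3.3 and matplotlib 3.10.9.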

Additional observations from a re-analysis of the deposited data

How the results depend on the processing

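With windows from 2000 bp upstream, 1 of the 8 genes (vab-23) had a joint region among the 2000 strongest, 1 had a region among the 2000 strongest of both replicates, and 9 of the 38 other vulval genes had a joint region among the 2000 strongest. With 10000 bp upstream, 1 of the 8 genes, zmp-1, had an optimal peak. Giving each summit to the nearest coding 5′ end within 5000 bp left 1 gene, vab-23, among the 2000 strongest. Using 1 replicate's list in place of the joint list gave 2 to 3 of the 8 genes among the 2000 strongest, 3 to 5 among the 5000 strongest, the 5 without replicate 1, and 11 to 12 of the 38 other genes. Of the 11 regions found in both replicates, 5 had replicate summits within 100 bp, and 2 were among the 5000 strongest. With a limit of 1000 in both replicates no gene was left (0 of 8). For a region among the strongest of both replicates at 1 site, a limit of 5000 gave 0 genes and a limit of 20000 gave 5, limits chosen after the data were seen. Within 50 bp of the summit TAATTA was at 1 region and GAGAGA at 3, and within 150 bp TAATTA was at 4 and TGATAA at 7. The causes were not tested. The other 20 alternative values stayed within 1.5 times the reported count. No paired analysis was possible because the 2 replicates form 1 group. Depth is unknown, so a region missing from a replicate list means only that no overlapping region was among the 30000 kept.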
